A study of Oryza sativa with 18 samples.

Results

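The response of rice roots to a pulse of 2,4-D (2,4-dichlorophenoxyacetic acid), a synthetic auxin, was compared between 1 and 14 days post-treatment (dpt), to find which parts of the early response faded, persisted or reversed. The comparison used all libraries of those times, which are 12 of the 18 in the series. They fall into 4 groups of 3 biological replicates: roots of Oryza sativa cv. Nipponbare soaked for 1 h in 50 µM 2,4-D and roots soaked in a mock solution, each taken at 1 dpt and at 14 dpt. The labels name no genetic change in these plants, which were 7 days old at the soak, and all of them, mock included, grew on a medium low in nitrogen. At 14 dpt the 2,4-D roots were chosen because they carried nodule-like structures (NLS), the rounded outgrowths that 2,4-D brings about, whereas NLS played no part in the choice of the 1 dpt roots. The 2,4-D group of 14 dpt thus differs from that of 1 dpt in time and in the kind of root taken. By the labels, the 1 dpt libraries were sequenced in one batch and the 7 and 14 dpt libraries in another. Each 2,4-D effect was therefore taken within its own batch, as 2,4-D against the mock roots of the same time, and the 2 effects were then subtracted. Whatever acted on mock and 2,4-D libraries of one batch alike cancels in that difference, but time and batch cannot otherwise be told apart.

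Auxin is sensed in the nucleus, where it leads to the breakdown of Aux/IAA repressors and frees auxin response factors (ARFs) to act on their target genes. Among the first targets are the Aux/IAA genes themselves and the GH3 genes, whose enzymes conjugate natural auxin to amino acids. Others encode the LOB-domain factors that start lateral organs in roots. Carriers of the PIN family transport auxin and YUCCA enzymes make it. PLETHORA and BABY BOOM factors, members of the AP2 family known from Arabidopsis, maintain root meristems. The herbicide 2,4-D acts through the same receptors as natural auxin and is broken down more slowly in plants.

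The study also examined 14 genes by RT-PCR. The primers of 3 of them are shown because these genes stand for a lasting effect, an effect that shrank and an effect that was called at the later time alone. Each primer is written 5′ to 3′ as in the study's primer list.
GRAS factor LOC_Os06g40780.1, forward: caggtggaggtgatgatagattg
GRAS factor LOC_Os06g40780.1, reverse: ttgatgatggcctccagataac
Auxin efflux carrier LOC_Os01g51780.1, forward: aggcagctctacctcaagga
Auxin efflux carrier LOC_Os01g51780.1, reverse: aaagtagtaagccagcgcca
Calcium-dependent protein kinase LOC_Os08g42750.1, forward: ggaggatgcttgatcctaacc
Calcium-dependent protein kinase LOC_Os08g42750.1, reverse: gagtaagagtatccttgcagagc

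The 12 libraries held 9416952 to 18057748 counts. Levels are given in CPM, the counts after every library was scaled to one common total with its normalization factor, and effects as log2 of 2,4-D over mock. Within groups the libraries correlated at 0.903 to 0.977 at 1 dpt (Pearson, log2 CPM). At 14 dpt the 2,4-D libraries correlated at 0.883 to 0.939, whereas mock replicate 2 stood apart from the other mock libraries, at 0.852 and 0.814. Of 3 MYB36 genes, markers of the endodermis, it held more RNA of LOC_Os01g49160.1, at 134 CPM against 15.2 and 11.8, but not of LOC_Os03g56090.1, at 27.6 against 26.3 and 44.5, or LOC_Os08g15020.1, at 6.30 against 8.00 and 11.7. It held more of the PsbP gene of photosystem II (LOC_Os01g70820.1), at 23.0 against 6.21 and 6.37, and more of sucrose transporter 2 (LOC_Os02g58080.1), at 163 against 67.4 and 45.7. The part of these differences in the results was not tested beyond the fit without that library. The silicon channel NIP2-1 (LOC_Os02g51110.1), which in rice is expressed mainly in roots, was present in all 12 libraries at 195 to 1761 CPM. In bulk tissue, fewer cells of a type and less RNA per cell cannot be told apart.

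At 1 dpt, 704 of 15149 tested transcripts were higher with 2,4-D (4.65%) and 1151 were lower (7.6%), which makes 12.2% called (an edgeR adjusted p under 0.05 and a log2 effect of at least 1 in size). At 14 dpt, 795 were higher (5.25%) and 1397 lower (9.22%), which makes 14.5% called. Across transcripts the 2 effects correlated at 0.564 (Pearson) and 0.449 (Spearman), as a description over 15149 transcripts that are not independent. Of the 1151 transcripts low at 1 dpt, 668 (58%) were still called low at 14 dpt, 468 (40.7%) were no longer called and 15 were called high. Of the 704 transcripts high at 1 dpt, 236 (33.5%) were still called high, 464 (65.9%) were no longer called and 4 were called low. Both shares depended on the fit: between 45% and 70% of the low and between 22.3% and 50.4% of the high transcripts kept their call when each of the 12 libraries was left out in turn. The value of 22.3% came without mock replicate 3 of 1 dpt, where 987 transcripts were called high at 1 dpt, and that of 50.4% without mock replicate 2 of 1 dpt, where 353 were.

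A call at one time and none at another does not show a difference, so the difference itself was tested. This interaction is the effect at 14 dpt minus the effect at 1 dpt, on the log2 scale, and a positive value means that 2,4-D roots stood higher relative to mock at 14 dpt than at 1 dpt. It was called for 225 transcripts, 1.49% of those tested, with 139 higher (0.918%) and 86 lower (0.568%). A further look at unadjusted values found 2979 transcripts (19.7%) at p under 0.05, and the median standard error was 0.387. The count of calls depended strongly on single libraries. Without mock replicates 1, 2 and 3 of 1 dpt it was 50, 31 and 731, and without the 2,4-D replicates of 1 dpt it was 63, 37 and 188. Without mock replicates 1, 2 and 3 of 14 dpt it was 47, 105 and 428, and without the 2,4-D replicates of 14 dpt it was 31, 803 and 82. All of the 225 transcripts that were still tested kept the sign of their interaction in each of these fits, whereas 31 to 225 of them kept their call. Limma-voom, the test that the study names, called 43, each of them among the 225, and edgeR on the 12 libraries of these times alone called 14. Counts of fits that held, given for single genes below, cover only the fits without one library. Of 48 calls among the genes picked for naming, 1 was kept in all 23 alternatives.

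The calls were combined into classes, which describe the tested values and are not tested again. Among the transcripts high at 1 dpt, 34 had faded, which means that they were not called at 14 dpt and had a called interaction against their early direction. Among those low at 1 dpt, 32 had faded. The 14 dpt effect kept its early sign in only 6 of the 34 and 4 of the 32, with medians of -0.45 and 0.47. Most faded transcripts thus lay on the other side of mock at 14 dpt, without a call there. Persisting transcripts numbered 236 high and 668 low, and in 10 of the persisting high ones the interaction was called, with 7 grown further apart from mock and 3 drawn closer. None of the 668 persisting low transcripts had a called interaction, while 38 of them had an unadjusted p under 0.05 in edgeR. Reversed transcripts, called in opposite directions at the 2 times, numbered 15 that were low and then high and 4 that were high and then low. Late transcripts, not called at 1 dpt but called at 14 dpt with a called interaction, numbered 73 high and 30 low. A large part of the early response could not be placed: 430 high and 436 low transcripts lost their call at 14 dpt without a called interaction. Of these undecided ones, 281 high and 203 low had an unadjusted interaction p under 0.05, and these transcripts were shown neither to fade nor to persist.

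**Figure D1:**
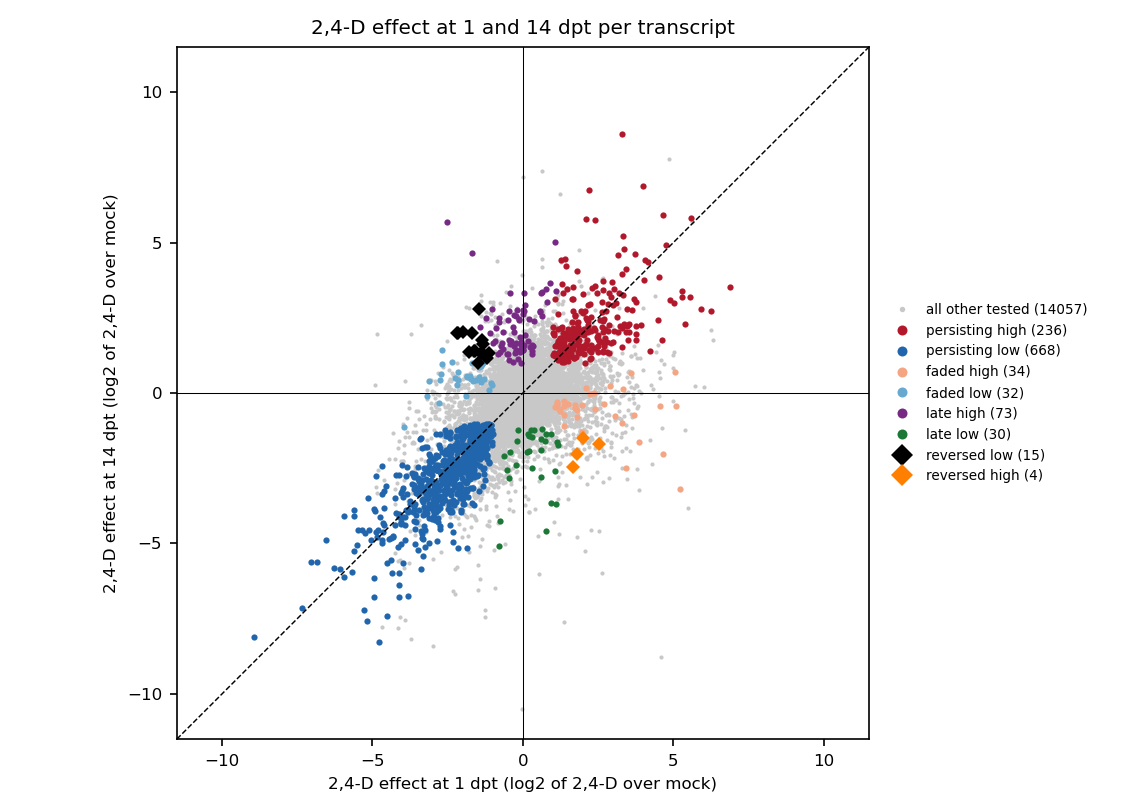
2,4-D effect at 1 dpt (x axis) against the effect at 14 dpt (y axis), both as log2 of 2,4-D over mock from 3 libraries per group, for 15149 transcripts, with colours for the classes and a dashed line where both effects are equal. The 668 persisting low and 236 persisting high transcripts lie along the line, the faded ones far from it, with median effects of -0.45 and 0.47 on the y axis, and the 15 low-to-high reversed ones in the upper left.

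The 6 libraries of 7 dpt entered the classes only through the shared estimate of spread, the normalization factors and the filter on low counts. With the 12 libraries alone, 14745 transcripts passed that filter, so the look that the 7 dpt libraries give is not fully separate. Of the 236 persisting high transcripts, 211 (89.4%) were called high at 7 dpt, and of the 668 persisting low ones 589 (88.2%) were called low, against 6.04% and 8.4% of all tested transcripts. Their median effects at 7 dpt were 2.15 and -2.41. The faded high transcripts had a median of 2.16 at 1 dpt and 0.52 at 7 dpt, where 7 of 34 were called high. In the faded low ones the median was -1.8 at 1 dpt and 0.04 at 7 dpt, and 3 of 32 were called low. The late classes were already displaced at 7 dpt, with medians of 1.26 (43 of 73 called high) and -1.38 (16 of 30 called low). Among the 15 transcripts that turned from low to high, all had a positive effect at 7 dpt and 5 were called high. For transcripts high at 1 dpt but undecided, the median went from 1.83 over 1.26 at 7 dpt to 0.35 at 14 dpt, and 198 of 430 were called high at 7 dpt. The 7 and 14 dpt libraries share a sequencing batch, and the 2,4-D roots of both times were chosen for NLS.

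**Figure D2:**
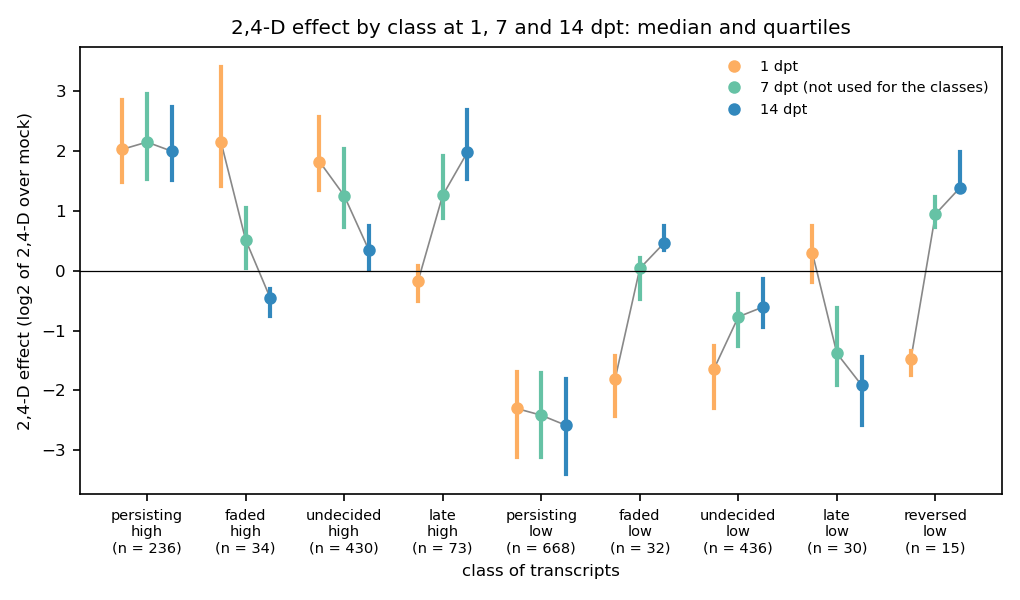
Median 2,4-D effect (points) with the lower and upper quartiles (bars) at 1, 7 and 14 dpt for 9 of the classes, as log2 of 2,4-D over mock, where n is the number of transcripts. The effects at 1 and 14 dpt define the classes. The 7 dpt medians were not used for them and lie at 2.15 for persisting high, 0.52 for faded high, 1.26 for late high and 0.95 for the low-to-high reversed transcripts.

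In the faded and late classes, the level moved further in 2,4-D than in mock roots for most transcripts: mock moved further in 6 of 34 faded high, 9 of 32 faded low and 5 of 73 late high ones. In the faded high class, the median log2 change of the level from 1 to 14 dpt was -1.68 in 2,4-D roots, with all 34 transcripts lower at 14 dpt, and 0.67 in mock roots, with 30 of 34 higher. The faded low class showed the opposite, with 1.5 in 2,4-D roots and -0.93 in mock roots. In the late high class the 2,4-D level changed by 1.8 and the mock level by -0.26. The undecided low class was different, with 0.35 in 2,4-D roots and -0.79 in mock roots, and the mock level moved further than the 2,4-D level in 284 of 436. These changes of level cross the sequencing batches, unlike the effects. They come from the same libraries that define the classes, so their directions follow in part from that selection. Whether the 2,4-D or the mock side brought about a class was not tested. Mock replicate 2 of 14 dpt was the highest of its group in 47.1% of the faded high and 56.0% of the undecided high transcripts, compared with 31.8% of all tested transcripts. In the late low class it was the highest in 26.7%. It was the lowest in 53.1% of the faded low, 73.3% of the low-to-high reversed and 47.9% of the late high transcripts, against 33.6% of all tested. In the persisting classes it was the lowest in 45.8% (high) and 42.4% (low). Without it, 12 transcripts were classed as faded high, 13 as faded low, 12 as low-to-high reversed and 32 as late high.

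The GH3 genes listed here were still high with 2,4-D at 14 dpt. Gene names and lists come from the study's tables, which were drawn from its 7 dpt comparison and so favour transcripts that respond at that time: of the 1691 named transcripts, 20.6% were called high and 28.3% low at 1 dpt, 21% and 41.1% at 14 dpt, and 2.9% and 1.18% were called higher and lower in the interaction. The lists are read against these shares. GH3 genes of rice outside the study's tables are not in the list. All 5 listed GH3 genes were called high at both times, as at 7 dpt, and none in the interaction. Their median effect was 2.67 at 1 dpt and 2.32 at 14 dpt. Over named transcripts it was -0.27 and -0.67, and over all transcripts 0.03 and 0.00. The GH3 gene LOC_Os05g42150.1 stood at 3.83, 3.62 and 2.96 CPM in mock and at 148, 201 and 157 CPM in 2,4-D roots of 1 dpt. At 14 dpt it stood at 3.29, 2.43 and 4.66 CPM in mock and at 204, 148 and 232 CPM in 2,4-D roots. The groups were far apart at both times, with log2 effects of 5.59 (edgeR adjusted p = 1.8e-05) and 5.81 (1.1e-05), and the interaction of 0.21 had a 95% interval from -0.83 to 1.25. The most abundant GH3 gene, LOC_Os01g55940.1, had 1849, 2289 and 2691 CPM in 2,4-D roots of 1 dpt but 527, 1063 and 148 CPM at 14 dpt, against 53.8 to 81.7 CPM in mock at both times. Its effect was 5.04 and then 3.01, and the interaction of -2.03 (-3.48 to -0.58) did not pass the adjustment (edgeR adjusted p = 0.124).

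The 5 listed Aux/IAA repressors and ARFs, parts of the switch of the auxin response, were all called high at 1 dpt and at 7 dpt. At 14 dpt 3 of 5 were called high. Their interaction was negative in 5 of 5 (against 63.3% of named transcripts) and called lower in 2. The list median was -0.95, against -0.3 over named transcripts and -0.04 over all transcripts. Without mock replicate 2 of 14 dpt the list median was -0.43, against 0.01 over all transcripts, and 1 was called lower. The repressor gene IAA31 (indole-3-acetic acid inducible 31, LOC_Os06g07040.1) had 60.1, 51.9 and 44.1 CPM in mock and 524, 841 and 1585 CPM in 2,4-D roots of 1 dpt. The 14 dpt libraries had 38.5, 72.8 and 36.4 CPM in mock and 139, 179 and 71.3 CPM in 2,4-D roots, so that the lowest 2,4-D library fell just below the highest mock library, replicate 2. Its effect thus went from 4.24 to 1.40, with an interaction of -2.84 ± 0.62 (SE, edgeR adjusted p = 0.0395). Without mock replicate 2 of 14 dpt the interaction was -2.45 (adjusted p = 0.0769), and the call held in 4 of the 12 fits that leave out one library. The ARF15 gene (LOC_Os05g48870.1) stood at 31.2 to 38.2 CPM in mock and 135 to 157 CPM in 2,4-D roots of 1 dpt, with no overlap. At 14 dpt its mock libraries lay at 56.4, 46.3 and 31.2 CPM and its 2,4-D libraries at 58.7, 58.9 and 31.9 CPM, overlapping. The effect went from 2.10 to 0.16, and the interaction was -1.94 ± 0.35 (edgeR adjusted p = 0.021; held in 7 of 12 such fits, with adjusted p up to 0.0738). ARF16 (LOC_Os04g43910.1) and ARF19 (LOC_Os06g48950.1) were called at both times, with effects of 1.36 and 1.27 and of 1.61 and 1.33. The remaining member, indoleacetic acid-induced protein 8 (LOC_Os05g48590.1), went from 1.85 to 0.90 and was not called at 14 dpt (edgeR adjusted p = 0.0611). Without mock replicate 2 of 14 dpt its effect at that time was 1.42 and was called (0.00588). Without that mock library the 14 dpt effect of ARF16 was 1.15 and was not called (edgeR adjusted p = 0.0968).

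The auxin efflux carrier LOC_Os01g51780.1, which the study names OsPIN8, had the highest effect at 1 dpt of the 1691 named transcripts. Whether it moves auxin out of cells was not tested. At 1 dpt it lay at 1.68, 1.28 and 0.99 CPM in mock and at 103.5, 223 and 146 CPM in 2,4-D roots, an effect of 6.88 (edgeR adjusted p = 3.6e-05). Later, at 14 dpt, its mock libraries lay at 3.89, 1.51 and 1.10 CPM and its 2,4-D libraries at 28.7, 34.0 and 11.8 CPM, an effect of 3.53 (0.00052). Every 2,4-D library was still above every mock library, but the interaction was -3.35 ± 0.69 (edgeR adjusted p = 0.0331; held in 5 of 12 fits without one library, with adjusted p up to 0.102, and in the fit without mock replicate 2 of 14 dpt at 0.0452). This call was lost with limma-voom, with the 12 libraries alone and when replicate numbers were fitted as blocks (adjusted p up to 0.375 among these). Another carrier of that family, LOC_Os09g32770.1, which the study names OsPIN5c, had an effect of -0.01 at 1 dpt and -1.53 at 14 dpt (interaction adjusted p = 0.145). Of the influx carriers of the AUX1 family, like AUXIN RESISTANT 3 (LOC_Os11g06820.1) was called low at both times (-1.90 and -3.0) and like AUXIN RESISTANT 2 (LOC_Os03g14080.1) was called high at 14 dpt (0.64 and 1.66), neither with a called interaction. The latter call was lost without mock replicate 2 of 14 dpt (1.39, edgeR adjusted p = 0.0558).

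YUCCA 3 (LOC_Os04g03980.1), which encodes an enzyme of auxin synthesis, reversed. At 1 dpt it was lower with 2,4-D, at 28.7, 12.9 and 26.3 CPM against 59.0, 72.6 and 42.8 CPM in mock. At 14 dpt it was higher, at 243, 185 and 256 CPM against 52.3, 63.8 and 85.5 CPM in mock, with no overlap at either time. The effect went from -1.36 (edgeR adjusted p = 0.023) to 1.76 (0.0041), an interaction of 3.12 ± 0.52 (0.0163). It held in 11 of the 12 fits without one library, and without mock replicate 2 of 1 dpt the adjusted p was 0.0524. An IAA carboxylmethyltransferase gene (LOC_Os04g56950.1), whose product methylates auxin, had 2,4-D levels of 21.2, 16.3 and 20.7 CPM at 1 dpt and 111, 80.0 and 84.1 CPM at 14 dpt, against 4.13 to 13.1 CPM in mock. Its interaction was 2.76 ± 0.50 (edgeR adjusted p = 0.021). That call held in 7 of the 12 fits without one library, with adjusted p up to 0.069. The second gene of that name, LOC_Os04g57090.1, was called low at both times (-2.90 and -2.05). Of the AIR12-type and SAUR proteins 4 of 5 were called low at both times, among them an AIR12 gene (LOC_Os08g24790.1) at -3.28 and -4.42, and none was called in the interaction.

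**Figure D3:**
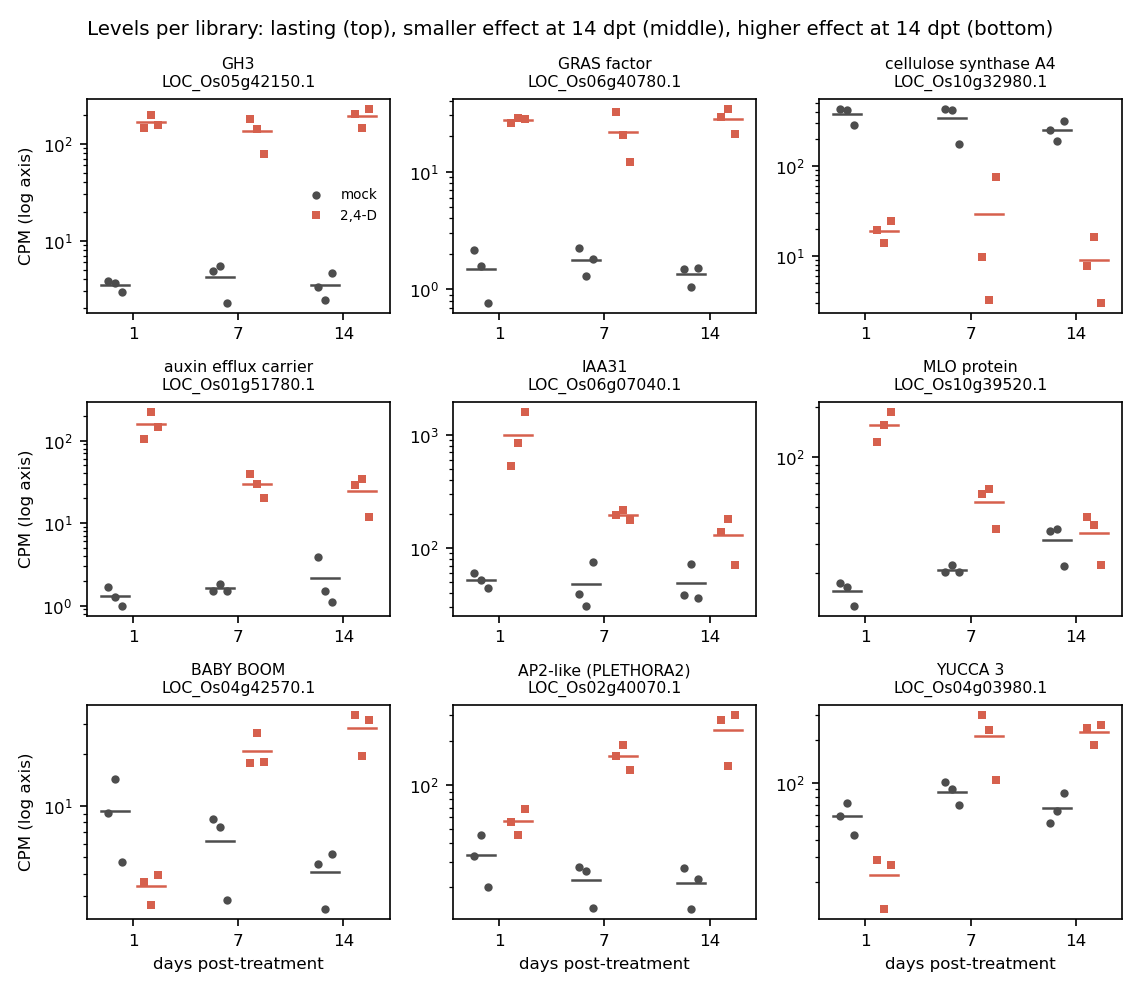
CPM of 9 transcripts in every library at 1, 7 and 14 dpt on log axes, with mock as circles, 2,4-D as squares and the mean of 3 libraries as a bar. The GH3 gene keeps its 2,4-D level (148 to 201 CPM at 1 dpt and 148 to 232 CPM at 14 dpt), the auxin efflux carrier loses part of it (103.5 to 223 and then 11.8 to 34.0 CPM), and BABY BOOM lies below mock at 1 dpt and above it at 14 dpt.

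The 4 listed PLETHORA and BABY BOOM factors were high with 2,4-D at 14 dpt. All 4 were also called high at 7 dpt, the time from which the names were drawn. At 1 dpt 1 of the 4 was called high and 1 low, and at 14 dpt all 4 were called high. In the interaction 3 were called, or 2 without mock replicate 2 of 14 dpt. The median interaction with all libraries was 3.32, against -0.3 over named transcripts and -0.04 over all transcripts. The BABY BOOM gene LOC_Os04g42570.1 had 9.04, 14.3 and 4.72 CPM in mock and 3.58, 2.63 and 3.96 CPM in 2,4-D roots of 1 dpt. By 14 dpt it was at 4.56, 2.49 and 5.27 CPM in mock and at 33.7, 19.6 and 31.5 CPM in 2,4-D roots. It was thus below mock in every early and above mock in every late library, with effects of -1.47 (edgeR adjusted p = 0.039) and 2.78 (0.0012). The interaction of 4.25 ± 0.64 (edgeR adjusted p = 0.0118) held in all 12 fits without one library, with adjusted p up to 0.0422. PLETHORA2 (LOC_Os02g40070.1) stood at 32.9, 45.9 and 20.3 CPM in mock and 55.5, 45.3 and 68.7 CPM in 2,4-D roots of 1 dpt, which overlap, and at 14.2 to 27.1 CPM against 135 to 300 CPM at 14 dpt. Its effects were 0.77 and 3.47, and the interaction of 2.70 ± 0.52 (edgeR adjusted p = 0.0253) held in 4 of 12 such fits and was 2.47 (0.0526) without mock replicate 2 of 14 dpt. The AP2-like gene LOC_Os03g56050.1 had 1.5 to 2.01 CPM in 2,4-D roots of 1 dpt and stood at 58.6, 37.0 and 60.9 CPM in 2,4-D roots of 14 dpt against 0.98 to 2.02 CPM in mock (interaction 3.94 ± 0.67, edgeR adjusted p = 0.0169, held in 11 of 12). Limma-voom did not call it (adjusted p = 0.339).

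Other AP2/ERF factors, which include regulators of ethylene and stress responses, showed no common direction. At each time 5 of 13 were called high (38.5%, against 20.6% and 21% of named transcripts). At each time 2 were low (15.4%, against 28.3% and 41.1%), and 1 was called in the interaction. That one is an AP2 domain gene (LOC_Os05g49010.1) with the largest called interaction of the named transcripts. It was at 1.23, 2.94 and 1.54 CPM in mock and 0.82, 0.16 and 0.79 CPM in 2,4-D roots of 1 dpt, and at 0.15, 0.72 and 0.61 CPM in mock and 15.1, 15.4 and 7.86 CPM in 2,4-D roots of 14 dpt. The interaction was 6.33 ± 0.91 (edgeR adjusted p = 0.00954) and was called in the 10 of 12 fits without one library in which it passed the filter on low counts. Limma-voom, the 12 libraries alone and a fit with replicate numbers as blocks did not call it (adjusted p up to 0.108 among these).

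Of the 10 lateral root primordium, LOB and WUSCHEL factors, 8 were called high at 1 dpt (80%, against 20.6% of named transcripts). At 14 dpt 7 were (70%, against 21%), and 6 were at both times, with no called interaction. LOB-domain 16 (LOC_Os02g57490.1), a direct target of ARFs in Arabidopsis that starts lateral roots, was at 37.6, 36.5 and 61.9 CPM with 2,4-D at 1 dpt and 26.4, 22.7 and 37.8 CPM at 14 dpt, against 2.42 to 4.98 CPM in mock. Its effects were 3.77 and 3.03, and the interaction of -0.74 had an interval from -2.06 to 0.59. Both WUSCHEL related homeobox 11 genes, known from crown root formation in rice, lost their call: LOC_Os03g20910.2 had effects of 2.40 and 0.69 and LOC_Os07g48560.1 of 1.80 and 0.06, with interaction adjusted p of 0.20 and 0.17. The GRAS factor LOC_Os06g40780.1 was at 26.0, 28.5 and 27.7 CPM with 2,4-D at 1 dpt and 29.1, 34.3 and 21 CPM at 14 dpt, against 0.77 to 2.14 CPM in mock. Its effect was 4.16 and then 4.36 (interaction 0.20, with a 95% interval from -0.93 to 1.33).

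Of the 5 genes of the cytokinin list, which holds response regulators and a cytokinin oxidase, 3 were called low at 1 dpt by edgeR (60%, against 28.3% of named transcripts). At 14 dpt 0 were called low (0 as well without mock replicate 2 of 14 dpt), and the interaction was positive in 4 of 5. In between, at 7 dpt, the time from which the names were drawn, all 5 were called low, with a list median of -1.89. Response regulator 9 (LOC_Os12g04500.1) stood at 47.6, 48.3 and 26.8 CPM in mock and 12.6, 13.4 and 18.6 CPM in 2,4-D roots of 1 dpt. By 14 dpt it was at 11.2, 20.1 and 22.4 CPM in mock and 46.3, 22.4 and 30.2 CPM in 2,4-D roots. Its effect went from -1.46 over -1.89 at 7 dpt to 0.88. The interaction was 2.34 ± 0.52 (edgeR adjusted p = 0.0395, and 0.0633 without mock replicate 2 of 14 dpt, held in 4 of 12). Response regulator 6 (LOC_Os04g57720.1) had effects of -1.60 at 1 dpt, -1.60 at 7 dpt and 0.87 at 14 dpt, with an interaction adjusted p of 0.0726.

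Of the 5 genes of ethylene and abscisic acid synthesis 3 were called high at 1 dpt (60%, against 20.6% of named transcripts) and 1 high at 14 dpt (20%, against 21%). The ethylene-forming enzyme LOC_Os09g27820.1, the last step of ethylene synthesis, was at 23.6 to 52.4 CPM with 2,4-D at 1 dpt against 1.96 to 3.68 CPM in mock, and at 24.9 to 33.5 CPM against 3.80 to 11.8 CPM at 14 dpt. Its effect was 3.77 and then 1.75, called high at both times, and the 2,4-D level was similar at both while the mock level was higher at 14 dpt (interaction -2.02, edgeR adjusted p = 0.18). In the gibberellin list 3 of 6 were called high at both times (50%, against 20.6% and 21% of named transcripts at 1 and 14 dpt). Among them was gibberellin 2-oxidase 6 (LOC_Os05g06670.1), which inactivates gibberellin, at 3.35 and 2.3.

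Of 14 EF-hand and calmodulin-binding proteins, which carry calcium signals, 11 were called high at 1 dpt (78.6%, against 20.6% of named transcripts) and 2 at 14 dpt, and 13 of 14 interactions were negative (92.9%, against 63.3% of named transcripts). The list median was 2.19 at 1 dpt and 0.72 at 14 dpt, with a median interaction of -1.30, and edgeR called the interaction in none of the 14. The calmodulin-binding protein gene LOC_Os11g44340.1 is outside that list by its name. It was at 60.6, 67.7 and 42.7 CPM with 2,4-D at 1 dpt, against 4.44, 1.66 and 2.41 CPM in mock, and at 10.5, 15.7 and 8.73 CPM at 14 dpt, against 5.61, 24.9 and 1.59 CPM in mock. The high mock value at 14 dpt is again that of replicate 2, and the interaction was -4.20 (edgeR adjusted p = 0.0638) with it and -2.62 (0.147) without it. For the whole list, leaving that library out gave 5 of 14 called high at 14 dpt and a median interaction of -0.78.

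Among 49 NB-ARC resistance proteins, the intracellular immune receptors of plants, 14 were called high at 1 dpt (28.6%, against 20.6% of named transcripts). Few were called low at that time, 3 of 49 (6.12%, against 28.3%). At 14 dpt 7 were called high (14.3%, against 21%) and 17 low (34.7%, against 41.1%), both below the shares of named transcripts. Their interaction was negative in 39 of 49 (79.6%, against 63.3% of named transcripts). Its median was -1.03, against -0.3 over named transcripts, and 1 was called in each direction. Without mock replicate 2 of 14 dpt, 8 were called high and 19 low and the median was -0.82. Of 10 WRKY factors, regulators of defence, 3 were called high at 1 dpt (30%, against 20.6% of named transcripts) and 1 at 14 dpt (10%, against 21%). With 10 members, these shares rest on few genes. WRKY70 (LOC_Os03g21710.1), an RT-PCR gene, went from an effect of 3.51 to 0.36, but its mock libraries of 14 dpt spread from 8.15 to 76.6 CPM and the interaction was not called (-3.16, edgeR adjusted p = 0.201). The highest of them is replicate 2, without which the 14 dpt effect was 1.76 and the interaction -1.76 (0.478). Chitinases and thaumatin-like proteins, which act on fungal walls, were called high in 9 of 17 at 1 dpt (52.9%, against 20.6%), 7 at 14 dpt (41.2%, against 21%) and 6 at both. Their median interaction was -0.65, or -0.09 without mock replicate 2 of 14 dpt. Chitinase A (LOC_Os11g47600.1) had effects of 3.45 and 2.80.

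The smallest adjusted p of the interaction over all transcripts was that of an MLO gene (LOC_Os10g39520.1), of the seven-transmembrane family known from powdery mildew susceptibility in barley. It was at 17.5, 16.7 and 12.7 CPM in mock and 124, 156 and 187 CPM in 2,4-D roots of 1 dpt. At 14 dpt it was at 36.2, 36.7 and 22.1 CPM in mock and 43.6, 39.1 and 22.5 CPM in 2,4-D roots, which overlap. The effect went from 3.31 (edgeR adjusted p = 5.9e-05) over 1.35 at 7 dpt to 0.15 (0.74) at 14 dpt, and the interaction of -3.17 ± 0.40 (0.00951) was called in all 23 alternatives. A phenylalanine ammonia lyase gene (PHE ammonia lyase 1, LOC_Os04g43800.1), the entry to phenylpropanoid synthesis, was at 62.5, 67.8 and 43.6 CPM with 2,4-D and 4.75, 3.02 and 10.3 CPM in mock at 1 dpt. At 14 dpt it was at 9.02, 26.5 and 9.84 CPM with 2,4-D and 34.0, 48.7 and 7.90 CPM in mock, and the interaction was -4.27 ± 0.91 (edgeR adjusted p = 0.0358). Without mock replicate 2 it was -3.74 (0.0678). A receptor like protein 19 gene (LOC_Os12g11370.1), a glycosyl hydrolase 31 gene (LOC_Os06g46340.1) and an S-locus lectin kinase gene (LOC_Os04g54080.1) faded in the same way, from effects of 2.68, 3.61 and 2.22 to -0.36, 0.68 and -0.03. Without mock replicate 2 of 14 dpt their interactions were -2.84, -2.73 and -1.83, with edgeR adjusted p of 0.0777, 0.0385 and 0.092.

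Protein kinases, 197 of them named, were called high in 66 (33.5%) and low in 33 (16.8%) at 1 dpt. At 14 dpt these were 50 (25.4%) and 49 (24.9%), with 24 high and 31 low at both times. Named transcripts were called high in 20.6% and low in 28.3% at 1 dpt, and in 21% and 41.1% at 14 dpt. The interaction was called higher in 4 and lower in 4, and in 2 and 1 without mock replicate 2 of 14 dpt. A receptor-like kinase gene (LOC_Os07g35410.1) became low late: it was at 35.96, 29.7 and 29.4 CPM with 2,4-D and 26.3 to 31.5 CPM in mock at 1 dpt, and at 5.96, 8.52 and 10.7 CPM with 2,4-D and 24.5 to 42.5 CPM in mock at 14 dpt. The interaction was -2.11 ± 0.34 (edgeR adjusted p = 0.0129), held in all 12 fits without one library. The calcium-dependent protein kinase LOC_Os08g42750.1, an RT-PCR gene, was at 1.51 to 1.94 CPM with 2,4-D at 1 dpt and at 143, 103.2 and 55.1 CPM at 14 dpt. Mock replicate 2 of 14 dpt held 22.5 CPM against 1.12 and 1.72 CPM in the others, and the interaction of 3.98 was not called with that library (edgeR adjusted p = 0.099) but was 6.54 (0.00555) without it. Early nodulin-like protein 17 (LOC_Os08g37660.1), a plastocyanin-like protein examined by RT-PCR as well, was at 236 CPM in the same library against 12.3 and 3.25 CPM in the other mock libraries of 14 dpt. Its effect at 14 dpt was -1.05 with and 2.39 without it, neither called.

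The remaining 8 RT-PCR genes had no called interaction by edgeR, and their adjusted p lay between 0.1188 and 0.8676. Among them a receptor-like kinase gene (LOC_Os07g35280.1) persisted, with effects of 2.68 and 2.45, as did a gene named after a phytosulfokine precursor (LOC_Os12g05260.1), with 1.49 and 1.93. The SHR5 receptor-like kinase gene LOC_Os05g16824.1, a cysteine-rich receptor-like kinase gene (LOC_Os02g27310.1) and a dynamin gene (LOC_Os09g39960.1), of a family that pinches off membranes, were called high at 1 dpt (2.22, 2.79 and 1.43) and not at 14 dpt (0.72, 0.40 and 0.50). The GRAS factor LOC_Os11g04570.1 was called high at 14 dpt alone (0.23 and 1.5). Neither time gave a call for wall associated kinase 3 (LOC_Os04g51040.1; 1.97 and -0.54) or for the NAC factor LOC_Os12g03050.1 (1.64 and 1.28), which without mock replicate 2 was called high at 14 dpt (2.12, edgeR adjusted p = 0.0357).

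Of 15 expansins and xyloglucan enzymes, which loosen and remodel the wall, 5 were called high at both times and 5 low at both, and 2 were called higher in the interaction, neither of them without mock replicate 2 of 14 dpt. The expansin B2 gene LOC_Os04g46630.1 stood at 38.4 to 76.6 CPM in mock and 1117 to 2443 CPM with 2,4-D at 1 dpt, and at 28.3 to 32.3 CPM and 796 to 2559 CPM at 14 dpt (effects of 4.67 and 5.92). Another expansin B2 gene, LOC_Os10g40720.1, grew further from mock, from 552, 279 and 503 CPM with 2,4-D at 1 dpt to 1704, 2159 and 994 CPM at 14 dpt, against 95.3 to 225 CPM and 61.4 to 107 CPM in mock. Its effects were 1.42 and 4.21, and the interaction of 2.79 ± 0.60 (edgeR adjusted p = 0.038) held in 4 of 12 fits and was 2.59 (0.0742) without mock replicate 2 of 14 dpt. Reads may be shared between near-identical expansin genes, and how such reads were counted is not given in the sources used here.

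Cellulose synthases and COBRA-like proteins were called low in 6 of 8 at 1 dpt (75%) and 7 of 8 at 14 dpt (87.5%). Laccases and dirigent proteins, which act in the formation of lignin and lignans, were called low in 14 and 15 of 17 (82.4% and 88.2%). Named transcripts were called low in 28.3% and 41.1%. Cellulose synthase A4 (LOC_Os10g32980.1), which makes the cellulose of secondary walls, was at 283 to 434 CPM in mock and 13.8 to 24.5 CPM with 2,4-D at 1 dpt, and at 188 to 317 CPM and 3.02 to 16.1 CPM at 14 dpt. Its effects were -4.30 and -4.80, with an interval of the interaction from -2.94 to 1.95. Laccase 17 (LOC_Os01g62490.1) had effects of -4.38 and -4.82. No member of either list was called in the interaction (6 of 8 and 14 of 17 were called low at both times). MYB factors, many of which regulate wall and phenylpropanoid genes, were called low in 8 of 23 at 1 dpt (34.8%, against 28.3% of named transcripts). At 14 dpt 16 of 23 were called low (69.6%, against 41.1%). Their interaction was negative in 19 of 23 (82.6%, against 63.3%) and called in 0 by edgeR. Among the named persisting low transcripts, the GDSL lipase gene LOC_Os01g11730.1 had the largest effect at the time of its smaller one. It was at 83.2 to 136 CPM in mock and 0.52 to 0.88 CPM with 2,4-D at 1 dpt and at 77.2 to 215 CPM and 0.16 to 2.32 CPM at 14 dpt (effects of -7.34 and -7.13).

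**Figure D4:**
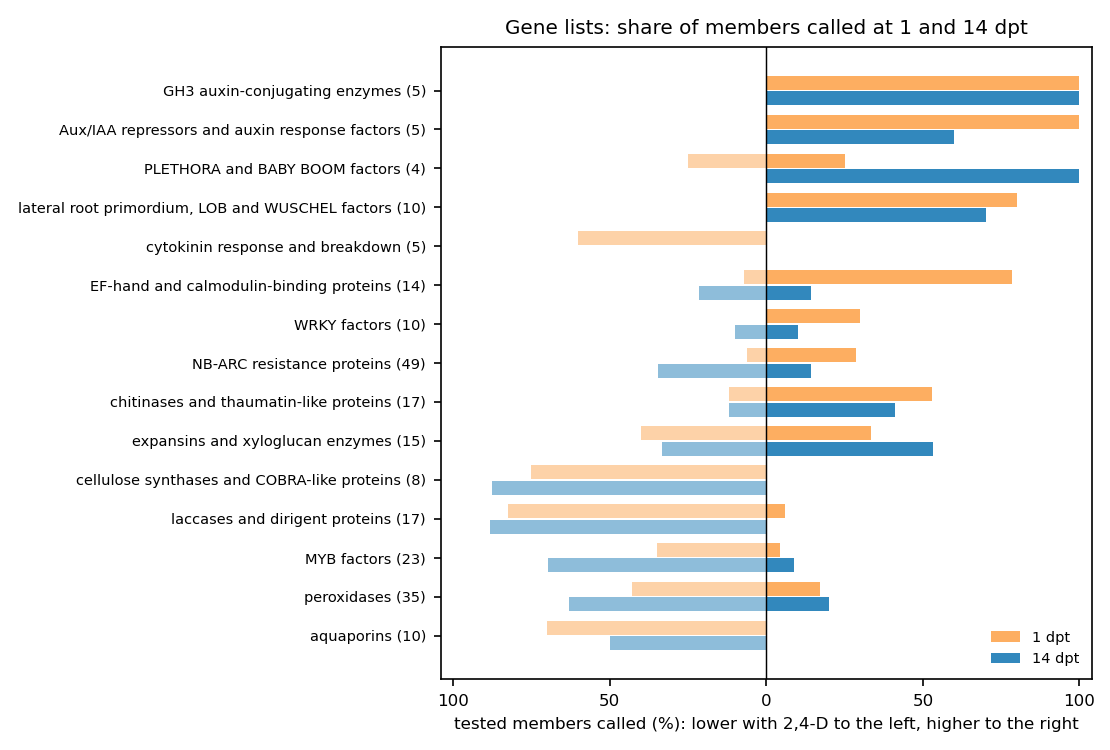
Share of tested members called at 1 dpt and at 14 dpt in 15 gene lists (number of tested members in brackets), with members lower with 2,4-D to the left in pale bars and members higher to the right. All 5 GH3 genes were called high at both times, all 4 PLETHORA and BABY BOOM factors at 14 dpt, and 14 and then 15 of 17 laccases and dirigent proteins were called low.

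Of 35 peroxidases, wall enzymes of class III, 15 were called low at 1 dpt (42.9%, against 28.3% of named transcripts) and 22 at 14 dpt (62.9%, against 41.1%). Called high were 6 and 7 (17.1% and 20%, against 20.6% and 21%). In the interaction 1 was called higher and 2 lower. The one called higher (LOC_Os04g59260.1) reversed, from 99.7, 73.7 and 194 CPM with 2,4-D against 368, 566 and 262 CPM in mock at 1 dpt to 953, 420 and 1157 CPM against 251, 189 and 198 CPM at 14 dpt. Its interaction of 3.69 ± 0.58 (edgeR adjusted p = 0.0129) held in all 12 fits without one library. The 2 that became low late, LOC_Os12g26290.5 and LOC_Os01g36240.1, had effects of 0.74 and -0.47 at 1 dpt and -1.58 and -2.82 at 14 dpt. The interaction of LOC_Os01g36240.1 was not called without mock replicate 2 of 14 dpt (-1.92, edgeR adjusted p = 0.0626). LOC_Os12g26290.5 is a non-primary isoform, and how reads shared by isoforms were counted is not given in the sources used here. Among 33 cytochromes P450, 3 were called higher in the interaction, all late, and 1 without mock replicate 2 of 14 dpt. That one is a P450 707A gene (LOC_Os08g36860.1), the family that breaks down abscisic acid in Arabidopsis. It was at 35.4, 26.9 and 61.4 CPM with 2,4-D at 1 dpt, within reach of the 32.6 to 45.1 CPM in mock, and at 432, 163 and 480 CPM at 14 dpt against 25.6 to 63.4 CPM (interaction 2.88 ± 0.62, edgeR adjusted p = 0.0364, held in 5 of 12).

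Of 190 transporters, 64 were called low at 1 dpt (33.7%, against 28.3% of named transcripts), 92 at 14 dpt (48.4%, against 41.1%) and 58 at both. Called high were 25 and 26 (13.2% and 13.7%, against 20.6% and 21%). The interaction was called higher in 3 and lower in 2, and in 1 and 1 without mock replicate 2 of 14 dpt. Aquaporins were called low in 7 of 10 at 1 dpt (70%) and 5 at 14 dpt (50%), and peptide and nitrate transporters in 9 and 11 of 16 (56.2% and 68.8%). Named transcripts were called low in 28.3% and 41.1%. In the transporter list the lowest called interaction was that of the auxin efflux carrier described above and the highest that of an ABC2 homolog gene (LOC_Os08g30780.1), with effects of -0.81 and 2.50 and an interaction of 3.31 ± 0.54 (edgeR adjusted p = 0.015, held in 11 of 12).

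Of the transcripts without a name in the study's tables, LOC_Os01g10110.1 and LOC_Os01g46984.1 had the largest called interactions, 8.21 and 4.53, and LOC_Os07g34260.1 and LOC_Os11g45990.1 the smallest, -8.43 and -6.66 (edgeR adjusted p of 0.0499, 0.0295, 0.0452 and 0.0358). The calls of LOC_Os01g10110.1 and LOC_Os01g46984.1 held in 3 and 5 of 12 fits without one library, and without mock replicate 2 of 14 dpt they were lost (8.12 and 4.20, adjusted p of 0.095 and 0.0588). LOC_Os01g46984.1 was at 2.15 to 3.78 CPM with 2,4-D at 1 dpt and at 27.4, 29.2 and 35.9 CPM at 14 dpt, against 0.00 to 0.75 CPM in mock. For LOC_Os07g34260.1 the mock libraries of 14 dpt lay at 33.7, 38.2 and 0.25 CPM, and the interaction was -7.93 (adjusted p = 0.0769) without replicate 2.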

How the data were processed

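Messenger RNA of 18 rice root libraries was sequenced with a stranded, paired-end kit, and the 12 libraries of 1 and 14 dpt are the subject here. The authors checked the reads with RSeQC and aligned them with Rsubread to MSU version 7 of the rice genome. The authors then counted reads per transcript with featureCounts, and the deposited counts are whole numbers with no normalization. Not given in the sources used here is how strand was set and how reads common to isoforms, paralogs or antisense genes were treated, and such genes are uncertain. The table holds 66860 transcripts, and 0 of its columns remained without a sample.

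The counts were tested with edgeR 4.0.16 in R 4.3.3 (robust quasi-likelihood fit, TMM factors, Benjamini-Hochberg adjustment) in one fit of all 18 libraries as 6 groups of 3, over the 15149 transcripts that reached 10 CPM in 2 libraries. Calls needed both an adjusted p below 0.05 and a log2 value of 1 or more in size. Intervals are 95% intervals of that fit. Alternatives were limma-voom (limma 3.58.1), DESeq2 1.42.0, other normalizations and filters, the 12 libraries alone, counts summed per locus, no fold threshold, a replicate block and leaving out each library. Replicate pairs differed by a chi-square per degree of freedom of 8.19 to 104, so each library counted as its own sample. For changes of level by class, 0.5 CPM was added before the logarithm. Plots were made with matplotlib 3.10.9.

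The rule for naming took the 14 RT-PCR genes, the 12 highest and 12 lowest called interactions of named transcripts, up to 4 named members of each class and of each of 37 gene lists (by size of the called interaction, or of the lasting effect), all genes of the short auxin lists, and 4 transcripts without a name, of which the text gives those its results turn on. Members of the PLETHORA, cytokinin, WUSCHEL and calmodulin lists named beyond this were chosen after their values were seen. The members and lists were chosen with earlier results of these data known. Gene names come from the study's tables, often after the best match in another species, and the authors' fold changes and p-values there were not used.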

Additional observations from a re-analysis of the deposited data

Results flagged for a closer look

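The 2,4-D effect differed between 1 and 14 dpt, by the edgeR test of the interaction, in 139 transcripts that stood higher and 86 that stood lower at 14 dpt relative to mock. The 44 that the naming rule picks follow with the interaction on the log2 scale, and their adjusted p lay between 0.00951 and 0.0471. Each rests on 3 libraries per group.

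Among transcription factors the values were 6.33 for an AP2 domain gene (LOC_Os05g49010.1), 4.25 for BABY BOOM (LOC_Os04g42570.1), 3.94 for an AP2-like gene (LOC_Os03g56050.1) and 2.70 for PLETHORA2 (LOC_Os02g40070.1). They were 3.07 for an Ovate family gene (LOC_Os01g64430.1), 3.05 for a PLATZ gene (LOC_Os06g45540.1), 2.72 for a homeobox-leucine zipper gene (LOC_Os09g35760.2), 2.34 for response regulator 9 (LOC_Os12g04500.1) and 2.31 for a bHLH gene (LOC_Os03g07540.1).

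Among genes of hormone metabolism and response they were 3.12 for YUCCA 3 (LOC_Os04g03980.1), 2.76 for IAA carboxylmethyltransferase 1 (LOC_Os04g56950.1), 2.88 for a P450 707A gene (LOC_Os08g36860.1) and 1.75 for a P450 90D gene (LOC_Os01g10040.1), a family of brassinosteroid synthesis in Arabidopsis. They were -1.94 for ARF15 (LOC_Os05g48870.1), -2.84 for IAA31 (LOC_Os06g07040.1) and -3.35 for the auxin efflux carrier (LOC_Os01g51780.1).

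Among wall genes the values were 3.69, -2.32 and -2.35 for the peroxidases LOC_Os04g59260.1, LOC_Os12g26290.5 and LOC_Os01g36240.1, 2.83 for a fasciclin-like arabinogalactan protein gene (LOC_Os05g07060.1), 2.79 and 2.25 for the expansin B2 genes LOC_Os10g40720.1 and LOC_Os10g40700.1, and -2.93 for a glycosyl hydrolase 31 gene (LOC_Os06g46340.1). Actin depolymerizing factor 6 (LOC_Os10g37670.1), which severs actin filaments, had 2.92 and a galactose oxidase/kelch repeat gene (LOC_Os01g19480.1) had 3.19.

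Among enzymes and transporters they were 3.31 for an ABC2 homolog gene (LOC_Os08g30780.1), 2.87 for a P450 71B gene (LOC_Os01g27890.1), 2.70 for a UDP-glycosyltransferase gene (LOC_Os07g47550.1), 2.69 for a tau glutathione S-transferase gene (LOC_Os05g34150.1) and 2.58 for a heavy metal transport gene (LOC_Os02g30650.1). They were -2.37 for a cupin gene (LOC_Os02g32980.1), -3.48 for a reticulon gene (LOC_Os01g04640.1), -4.27 for PHE ammonia lyase 1 (LOC_Os04g43800.1) and -4.57 for a subtilase gene (LOC_Os02g17150.1).

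Among receptors and defence genes they were 3.10 and -1.60 for the NB-ARC genes LOC_Os11g46080.1 and LOC_Os11g15190.1, 2.11 for a leucine-rich receptor-like kinase gene (LOC_Os05g51740.1), -2.11 for a receptor-like kinase gene (LOC_Os07g35410.1), -2.24 for an S-locus lectin kinase gene (LOC_Os04g54080.1), -3.04 for receptor like protein 19 (LOC_Os12g11370.1) and -3.17 for an MLO gene (LOC_Os10g39520.1).

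The remaining values were 3.17 and 2.56 for genes of unknown function with DUF630 (LOC_Os05g35070.1) and DUF581 (LOC_Os02g46180.1) domains, and 2.15 for a transcript named after SufD (LOC_Os04g47870.2).

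Without mock replicate 2 of 14 dpt, 22 of these 44 calls were lost, with edgeR adjusted p of 0.0512 to 0.0943. They are those of LOC_Os01g19480.1, LOC_Os01g64430.1, LOC_Os10g37670.1, LOC_Os01g27890.1, LOC_Os05g07060.1, LOC_Os10g40720.1, LOC_Os09g35760.2, LOC_Os02g40070.1, LOC_Os02g30650.1, LOC_Os12g04500.1, LOC_Os03g07540.1, LOC_Os10g40700.1, LOC_Os04g47870.2, LOC_Os05g51740.1 and LOC_Os01g10040.1 among the positive values, and of LOC_Os11g15190.1, LOC_Os04g54080.1, LOC_Os01g36240.1, LOC_Os02g32980.1, LOC_Os06g07040.1, LOC_Os12g11370.1 and LOC_Os04g43800.1 among the negative ones.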

How the results depend on the processing

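The sign of the interaction did not change for any of the 225 called transcripts in any alternative in which they were tested, but the number of calls did. With limma-voom the interaction was called higher in 19 and lower in 24, with 8 faded high, 0 faded low, 8 reversed low, 10 late high and 9 late low transcripts (2648 at an unadjusted p under 0.05). With DESeq2 it was called higher in 478 and lower in 460, with 177 faded high, 125 faded low, 17 reversed high, 222 late high and 157 late low. A filter of 1 CPM gave 1306 transcripts high at 14 dpt. With filterByExpr 170 interactions were lower, 2254 transcripts were low at 14 dpt, and 70 were faded high, 7 reversed high and 61 late low. No filter left 2 reversed high. The 12 libraries alone gave 8 interactions higher and 6 lower, with 2 faded high, 1 faded low, 3 late high and 2 late low. No fold threshold gave 1638 transcripts high at 14 dpt, 10 reversed high and 23 reversed low. RLE factors, library sizes alone and counts per locus kept every count within 1.5 times.

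Leaving out one library at a time gave 19 to 510 interactions higher and 11 to 374 lower, 353 to 987 transcripts high and 479 to 1290 low at 1 dpt, and 582 to 1105 high and 863 to 1414 low at 14 dpt. It gave 3 to 234 faded high, 1 to 101 faded low, 178 to 287 persisting high, 324 to 676 persisting low, 2 to 20 reversed high, 5 to 23 reversed low, 7 to 339 late high and 4 to 120 late low. Of the 48 named calls, 2 to 12 of 12 such fits kept each, 7 were kept in every such fit that tested them, and 1 in all 23 alternatives.

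The sample titles state no pairing of replicate numbers. Deviations of same-numbered mock and 2,4-D libraries correlated at -0.575 to 0.375, and over 0.1 in 2 of 6. With 3 libraries per group these deviations constrain each other, so they cannot exclude a pairing. With the replicate block the interaction was called higher in 1 and lower in 3, 495 transcripts were low at 1 dpt and 904 at 14 dpt, and the classes held 2 faded high, 0 faded low, 299 persisting low, 2 reversed low, 1 late high and 0 late low (edgeR, with 2211 interactions at an unadjusted p under 0.05). Apart from settings that hold fewer libraries or other transcripts by construction, the cause of these shifts was not tested.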
